A study of Drosophila melanogaster with 2 samples.

Results

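The 9 genes described here are the Sp/KLF family genes of Drosophila melanogaster named for this account: CG3065, cbt, Spps, dar1, luna, btd, Sp1, Klf15 and CG42741, out of 13945 annotated protein-coding genes. They were chosen by name as family members, but earlier results of these data were known when the list was made. The data ask where the CG3065 protein sat on chromatin, and the question here was whether peaks were listed at the gene for CG3065 itself and at the genes of its relatives. Chromatin immunoprecipitation and sequencing (ChIP-seq) was done with an antibody against GFP on whole embryos of mixed sex, collected at 0 to 16 h. All samples came from a transgenic line that stably expresses CG3065 with GFP at its C-terminus, in 1 group of 2 biological replicates numbered 1 and 3. The labels describe an insertion aimed at CG3065, but give neither the promoter that drives the fusion nor whether the native gene is intact. No untagged or mock control library was analysed here, so no group was compared with another, and peak lists of whole embryos cannot be checked against tissue markers.

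Sp and KLF proteins are transcription factors that grip DNA with 3 zinc fingers, usually near the C-terminus, and family members from flies to mammals bind related GC-rich and CACCC-type sequences. Because those fingers are so alike, family members can compete for the same sites, and mammalian KLF genes are known to regulate each other. In the fly, btd patterns the head of the embryo, Sp1 acts in leg growth with it, and Spps works with Polycomb group proteins. The cbt gene responds to signalling, stress and nutrients, and dar1 shapes the dendrites of sensory neurons. Not all of these roles are played in the embryo.

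The deposited lists hold summits, the base of highest signal in each peak, and a signal per peak as the authors' caller gave it. Relaxed lists of 30000 peaks (replicate 1), 26271 peaks (replicate 3) and 30000 peaks (both replicates pooled) include background by design. The 2451 peaks that passed the authors' irreproducible discovery rate (IDR) threshold were the 2451 pooled peaks of highest signal, between 81.3 and 1017 with a median of 116. Signals of different lists are on different scales, so replicates are compared below by rank within a list, where 1 is the highest. The files give no read counts, so sequencing depth is unknown.

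The zinc fingers show how close the relatives are to the tagged protein. CG3065 had 5 matches to the C2H2 finger pattern in its 400-residue RefSeq protein, 3 of them in a run at residues 111 to 191 and 2 outside it. The other 8 proteins had 3 fingers each, in a run that ended 0 residues from the C-terminus in CG42741 and 248 residues from it in Sp1. Over 71 aligned positions of the run, CG3065 shared 76.1% with Spps and 74.6% with Sp1. The share was 67.6% with btd, 66.2% with cbt, 63.4% with CG42741, 60.6% with luna and 59.2% with both dar1 and Klf15. Among all 36 pairs it ran from 57.7% for dar1 and btd to 91.5% for dar1 and luna. At the 9 finger positions that usually touch bases in C2H2 fingers, CG3065 matched Spps, Sp1, cbt, btd and Klf15 at 8 and dar1, luna and CG42741 at 7. These are identities of sequence and say nothing of where any relative binds.

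An IDR summit lay in the gene or within 5 kb of it for 5 of the 9 genes: cbt and dar1 with 3 each, CG3065 and Spps with 2 each, and luna with 1. That is 55.6% of the family, where 33.2% of all protein-coding genes had one. The family includes long genes, and long genes hold more summits. Among genes within 1.5 times the length of each member, the share with an IDR summit ran from 27.0% for those like Klf15 to 61.1% for those like luna. At a start site of the gene itself, within 500 bp, 2 of 9 had an IDR summit (CG3065 and cbt), against 12% of all protein-coding genes. With so few genes, these counts describe the 9 and are not a result about the family.

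The relaxed list was less selective. It held a summit in the same window for 8 of 9 genes, where 88.1% of all protein-coding genes had one, and within 500 bp of an own start site for 6 of 9 (CG3065, cbt, Spps, luna, Sp1 and CG42741), where the share was 49.3%. In all, the 9 windows held 91 relaxed summits, 11 of them IDR summits. The 11 had a median pooled signal of 145. The other 80 had to lie lower, because the IDR peaks are the pooled peaks of highest signal. They had a median of 30.9, close to that of the whole pooled list, and reached 76.4 at most. Of those 80, 27 had a summit within 200 bp in both replicates, 45 in 1 and 8 in neither. The same split over all relaxed summits is not given here. Neither this count nor those per gene below can therefore be called high or low.

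**Figure D1:**
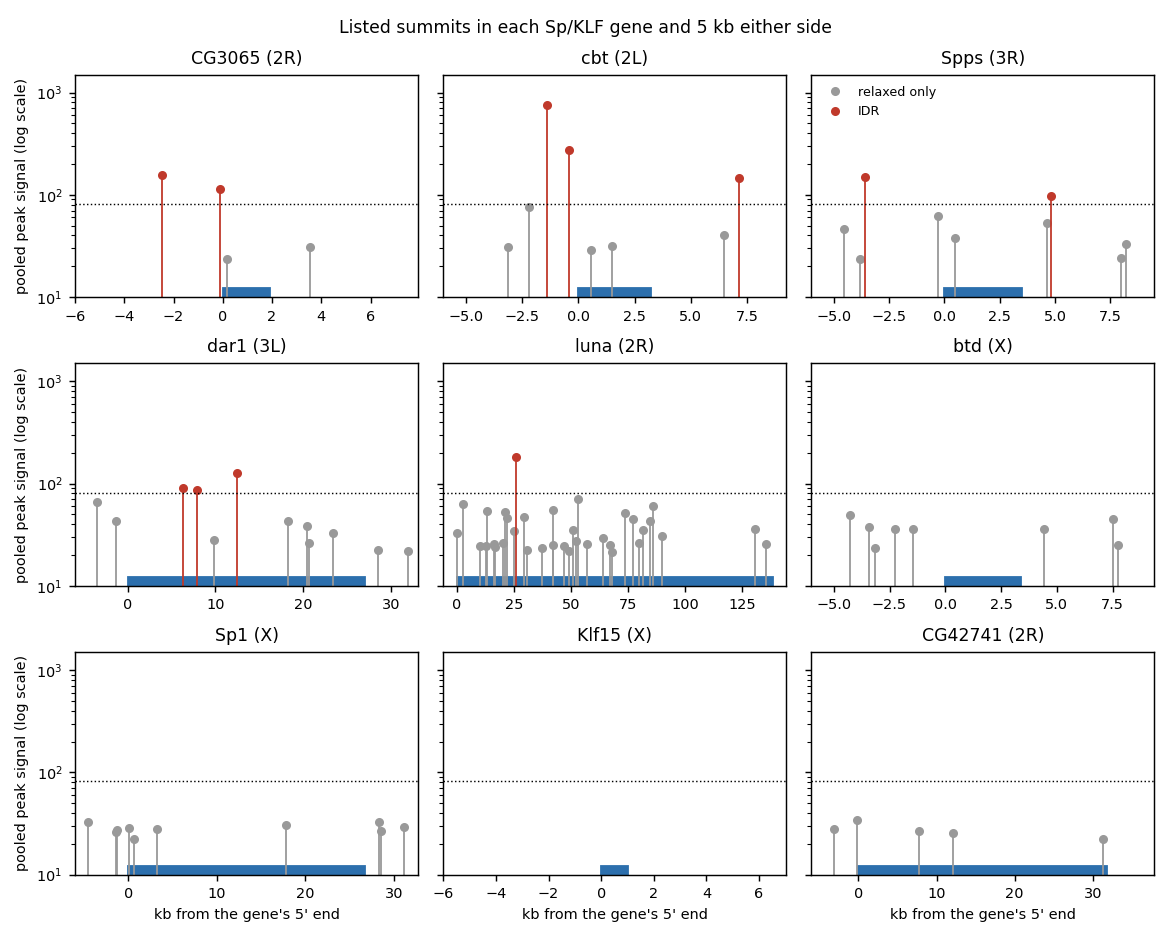
Each panel shows a gene (blue bar) with 5 kb either side; the x axis is the distance in kb from its 5' end in the direction of transcription, and the y axis the pooled peak signal on a log scale. Red marks IDR summits, grey those of the relaxed list only, and the dotted line the lowest IDR signal, 81.3. The 11 red summits fall at 5 genes, cbt has the tallest at 752, and Klf15 has none of either kind.

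All 11 IDR summits had a summit within 200 bp in both replicates, as had 99.2% of all IDR summits. Within 100 bp, 10 of the 11 had one in both. In replicate 3 all 11 ranked among the 2451 highest peaks, and in replicate 1, 9 did. The 2 that did not were in dar1. For 6 of the 11, the nearest protein-coding start site was that of the member itself (3 at dar1, 2 at cbt and 1 at CG3065). For the other 5 it was that of another gene, so a window of 5 kb does not assign a summit to its member. Of the 11, 4 lay inside the member's own gene body, all of them in introns, and 7 in the flanks.

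**Figure D2:**
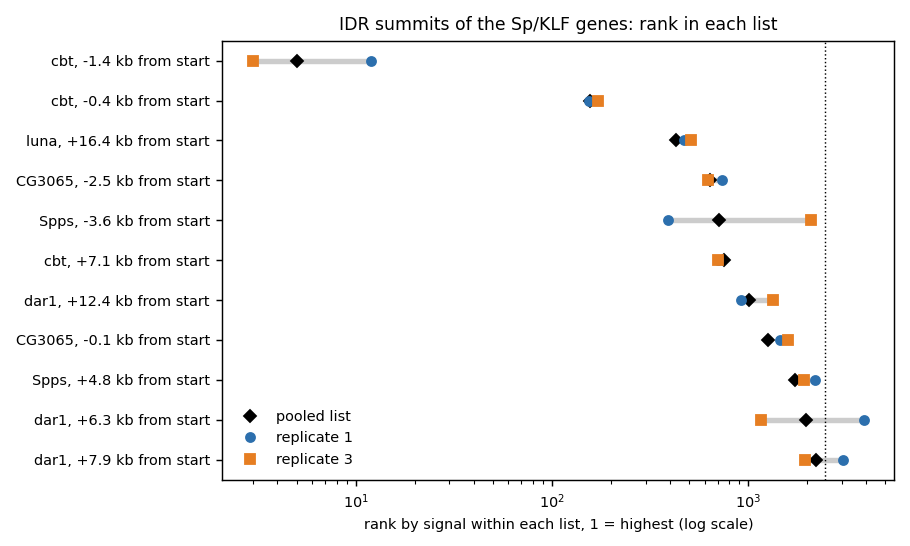
For each of the 11 IDR summits, named by member and by distance in kb to that member's nearest start site, the x axis gives the rank by signal (log scale) in the pooled list (diamonds), replicate 1 (circles) and replicate 3 (squares), joined by a grey bar between replicates. The dotted line marks rank 2451. The cbt summit 1397 bp upstream of its start is at rank 12 or better in every list, and 2 dar1 summits lie past the line in replicate 1.

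CG3065 (FBgn0034946, the tagged gene) lies on the plus strand of 2R, from 23970305 to 23972233 in dm6. An IDR summit at 23970210, 95 bp upstream of its start, had a signal of 59.9 in replicate 1, 46.0 in replicate 3 and 114 in the pooled list, or ranks 1460, 1591 and 1258. Both replicates thus placed it near the middle of the IDR range. The start of CG10904, which runs the other way, was 137 bp from the summit, and the 2 starts are 232 bp apart. The summit lies between them and cannot be given to either gene.

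The other IDR summit of the CG3065 window, at 23967835, was 2470 bp upstream. It had signals of 81.7 and 72.2 in replicates 1 and 3 and 154 in the pooled list, ranks 733, 623 and 640. It lay 90 bp from the start of CG34213 and 104 bp from that of or, which encodes a subunit of the AP-3 vesicle adaptor. Both IDR summits at CG3065 therefore sit between or beside starts of other genes. The relaxed list added a summit 157 bp downstream of the CG3065 start, in the 5' untranslated region, with a pooled signal of 23.5; replicate 1 had a signal of 46.7 there and replicate 3 no summit. The last, in a coding exon of mr, 3525 bp downstream of the start of CG3065, had a pooled signal of 31.0, with 13.6 in replicate 1 and 19.3 in replicate 3.

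Because the fusion is carried by a transgene, the chromatin around CG3065 was read more widely. The labels do not say how much sequence around the gene the transgene carries, so extra copies of that sequence and binding at the native gene cannot be told apart. Within 100 kb either side there were 14 IDR summits and 65 relaxed ones. Per bin of 10 kb this was 0.7 IDR and 3.25 relaxed summits on average, where the genome had 0.183 and 2.24. Of 13271 overlapping windows of 200 kb along the genome, 0.686% held 14 IDR summits or more, and their median was 3. The part of gene density in this was not tested. The bin just upstream of the start held 2 IDR summits, which 2.88% of bins reached, and the next bin downstream held 1. The other 11 lay at distances up to 98.6 kb from the start, and the 6 bins from 10 to 70 kb downstream held 0.

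**Figure D3:**
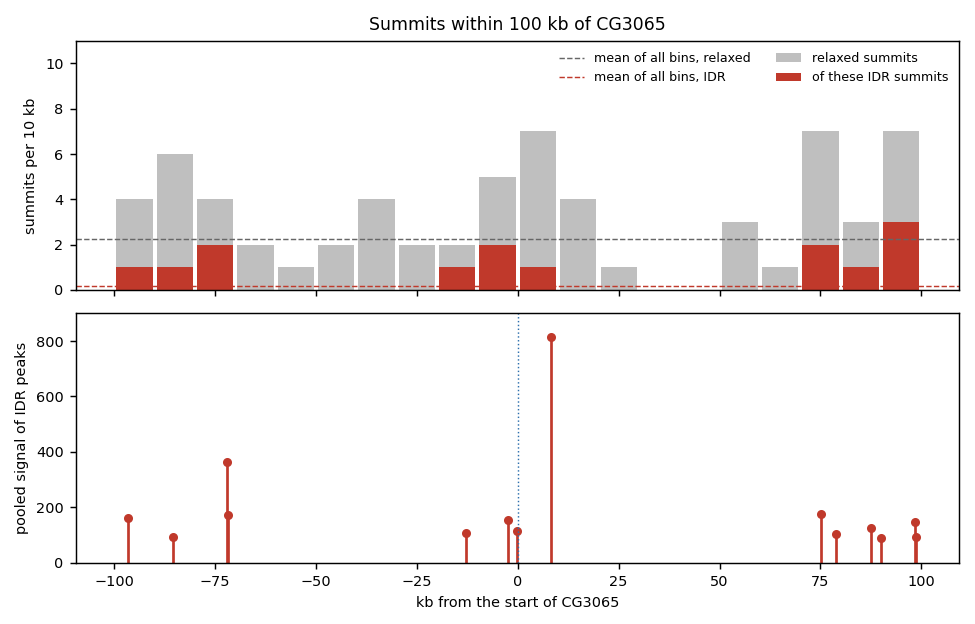
The top panel gives summits per 10 kb bin against the distance in kb from the start of CG3065, grey for all relaxed summits and red for the IDR summits among them, with dashed lines at the genome means of 2.24 and 0.183. The bottom panel gives the pooled signal of each IDR peak; the tallest, 814, is at Sox14, 8.26 kb from the start.

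The peak of highest signal in that stretch belonged to a neighbour. It lay 234 bp from the start of Sox14, an HMG-box transcription factor gene, with a pooled signal of 814 and rank 4, and was outside the 5 kb window of CG3065, 6334 bp beyond the end of the gene. Against it, the summit at the CG3065 start had a signal of 114.

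Spps (FBgn0039169, on the minus strand of 3R from 24223445 to 24226934) encodes an Sp-type factor that binds Polycomb response elements, and its fingers are the closest to those of CG3065. Its 2 IDR summits are both at promoters of neighbours. Their sequences on dm6, 50 bases either side of the summit, are shown because they hold none of the GC-rich words known for the family. No base is therefore in capitals.
Spps window, cav start, chr3R:24222064-24222164, plus strand: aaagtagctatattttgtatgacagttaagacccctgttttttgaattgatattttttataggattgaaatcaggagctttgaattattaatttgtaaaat
Spps window, mask start, chr3R:24230484-24230584, plus strand: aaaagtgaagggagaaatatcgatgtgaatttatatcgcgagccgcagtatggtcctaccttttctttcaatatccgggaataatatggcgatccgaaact

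The first Spps summit, at 24222114, had signals of 49.5 in replicate 1 and 42.4 in replicate 3, ranks 2182 and 1930, and 97.2 in the pooled list, rank 1741. It lay 128 bp from the start of cav, whose protein HOAP caps telomeres, and 149 bp from that of twin, the CCR4 deadenylase subunit. The second, at 24230534, had signals of 105 and 40.6 and ranked 390 in replicate 1 and 2097 in replicate 3, with 148 and rank 710 in the pooled list. As a ratio, no other of the 11 had replicate ranks as far apart. It lay 28 bp from the start of mask, an ankyrin-repeat protein gene, and 499 bp from that of Spase22-23, a signal peptidase subunit. At the Spps start itself there were only relaxed summits: one 282 bp upstream had signals of 28.7 in replicate 1, 31.5 in replicate 3 and 61.8 in the pooled list, rank 4087, in a coding exon of CG13609 and 193 bp from the start of that gene. Another, 475 bp downstream in a coding exon of Spps, had a pooled signal of 37.6, with 26.3 in replicate 3 and no summit in replicate 1.

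The btd gene (FBgn0000233, X from 9694186 to 9697558, plus strand), the head gap gene, had no IDR summit in its window and 8 relaxed ones, all outside the gene body. The highest was 4260 bp upstream, with a pooled signal of 49.5 at rank 6094, 29.1 in replicate 1 and 20.1 in replicate 3. Of the 8, 4 had a summit in both replicates and 4 in replicate 1 only. Close summits could match the same replicate peak. Those 3399 and 3162 bp upstream shared a signal and rank in replicate 1. Those 7532 and 7736 bp downstream did so in replicate 3. IDR summits came in at 10 kb either side, where 2 were found, with pooled signals of 105 and 183. Those lay 410 and 650 bp from the start of nej, the CBP acetyltransferase gene.

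Sp1 (FBgn0020378, X from 9729648 to 9756369, plus strand), the neighbour of btd in the genome and its partner in appendage development, also had no IDR summit, at 5 kb or at 10 kb. Its 10 relaxed summits had pooled signals of 22.2 to 32.9. A summit 38 bp downstream of its start had a pooled signal of 28.7, with 21.6 in replicate 1 and none in replicate 3. The stretch of 32090 bp between btd and Sp1 held 12 relaxed summits, the highest at 45.3, and 0 IDR summits. Neither btd nor Sp1 thus had an IDR summit within 5 kb.

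The highest signals of the family were at cbt (FBgn0043364, 2L from 476446 to 479688, minus strand), the fly relative of mammalian TGF-beta-inducible KLF10 and KLF11, which acts in dorsal closure, nutrient sensing and the clock. All of cbt lies within an intron of ush, a zinc finger cofactor of GATA factors. The 2 IDR summits upstream of cbt are intronic to ush as well, and the third lies in no protein-coding gene. The sequences at its 3 IDR summits are shown because the 2 upstream of cbt have the highest pooled signals of the family, on dm6, the 137-base peak nearest the start whole and the others with 50 bases either side of the summit. Here too no base is in capitals, since none of the words searched was found.
cbt, 1397 bp upstream, chr2L:481035-481135, plus strand: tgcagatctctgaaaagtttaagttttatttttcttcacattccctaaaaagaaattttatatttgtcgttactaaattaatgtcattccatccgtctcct
cbt, 398 bp upstream, chr2L:480028-480164, plus strand: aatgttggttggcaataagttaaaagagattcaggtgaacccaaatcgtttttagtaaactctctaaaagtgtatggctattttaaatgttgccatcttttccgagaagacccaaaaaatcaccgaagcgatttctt
cbt window, between CG4297 and MED15, chr2L:472490-472590, plus strand: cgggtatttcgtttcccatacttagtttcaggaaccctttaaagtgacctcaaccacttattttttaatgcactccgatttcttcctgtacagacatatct

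The summit 1397 bp upstream of the cbt start (481085) had signals of 360 in replicate 1, 389 in replicate 3 and 752 in the pooled list. It ranked 12, 3 and 5 in those lists, out of up to 30000 peaks. The summit 398 bp upstream (480086) had signals of 152, 122 and 277, at ranks 155, 171 and 156. Both replicates gave the same order, and both summits were far above the lowest IDR signal. By its highest pooled signal, cbt was number 15 among all protein-coding genes, a place it shares with any gene whose window holds the same summit, ush among them.

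The third IDR summit of the cbt window (472540) had signals of 83.3 in replicate 1, 68.5 in replicate 3 and 145 in the pooled list, rank 753. It lay beyond the 3' end of cbt, 340 bp from the start of CG4297 and 473 bp from that of MED15, a Mediator subunit. The relaxed summit nearest to the IDR threshold in the family was also at cbt, 2205 bp upstream, with 76.4 in the pooled list (rank 2747), 50.3 in replicate 1 and 26.4 in replicate 3. Of genes as long as cbt, 1.99% had 3 or more IDR summits in their window.

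The dar1 gene (FBgn0263239, 3L from 3626352 to 3653442, plus strand), a KLF gene needed for dendrite growth in multidendritic neurons, had 3 IDR summits, all in its introns and all nearest to its own start. They are weaker than those at cbt. Their sequences, again 50 bases either side of the summit on dm6, are shown because 1 of them is the family's example of the GC-rich words. Capitals mark the words searched on either strand: the box CCCACCC, read here as GGGTGGG, which overlaps a GC box (CCGCCC, read as GGGCGG), and a separate CACCC, read as GGGTG.
dar1 intron, 6280 bp downstream, chr3L:3632582-3632682, plus strand: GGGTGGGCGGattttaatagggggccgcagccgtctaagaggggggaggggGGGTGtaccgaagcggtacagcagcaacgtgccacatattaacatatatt
dar1 intron, 7916 bp downstream, chr3L:3634218-3634318, plus strand: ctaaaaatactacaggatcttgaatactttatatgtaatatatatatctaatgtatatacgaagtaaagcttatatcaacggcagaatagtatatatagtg
dar1 intron, 12406 bp downstream, chr3L:3638708-3638808, plus strand: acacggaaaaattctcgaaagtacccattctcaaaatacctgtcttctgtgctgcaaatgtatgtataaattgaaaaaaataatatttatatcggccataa

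The dar1 summit 12406 bp downstream of the start (3638758) had signals of 74.2 in replicate 1, 50.6 in replicate 3 and 126 in the pooled list, at ranks 924, 1331 and 1007. The one at 6280 bp (3632632) had 37.2, 54.1 and 91.1, and ranked 3887 in replicate 1 but 1164 in replicate 3. The one at 7916 bp (3634268) had 42.1, 42.3 and 86.1, ranks 3047, 1942 and 2206, and was the weakest of the 11. Taken from replicate 1 alone, the 2451 highest peaks include only 1 of the 3, and from replicate 3 alone all 3. Of genes as long as dar1, 47.8% had an IDR summit and 9.14% had 3 or more. No relaxed summit lay within 500 bp of the dar1 start; the nearest, 1330 bp upstream, had a pooled signal of 43.3, with 20.5 in replicate 1 and 19.8 in replicate 3.

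The luna gene (FBgn0040765, 2R from 10977956 to 11116378, minus strand) is a relative of mammalian KLF6 and KLF7 and the longest of the family, at 138423 bp. Its only IDR summit (11090454) was in an intron, 16362 bp downstream of the nearer of its 2 start sites, with signals of 98.0 in replicate 1, 78.5 in replicate 3 and 183 in the pooled list. The ranks were 471, 510 and 427. In the pooled list and in replicate 3 only the 2 summits upstream of cbt ranked higher in the family, and in replicate 1 the Spps summit at mask did too. The nearest start, 4868 bp away, was that of CG43188, a gene nested in luna. Since 61.1% of genes as long as luna had an IDR summit, and luna had 34 other relaxed summits, having 1 is near the background for its length. At its own starts the relaxed summits were low, at pooled signals of 32.7 (174 bp away) and 24.4 (399 bp away).

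A luna summit 2484 bp downstream of its first start showed how the replicates can part. It had a signal of 50.8 and rank 1324 in replicate 3, but 13.3 and rank 24068 in replicate 1. Its pooled signal was 62.5, under the IDR threshold. Among the 34 relaxed-only summits of luna, 12 had a summit in both replicates, 7 in replicate 1 only, 9 in replicate 3 only and 6 in neither.

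Klf15 (FBgn0025679, X from 4770557 to 4771588, minus strand), which is needed for nephrocyte differentiation, had 0 summits within 5 kb in all 4 lists. It is the shortest gene of the family, and 661 of 3757 genes of like length (17.6%) also had no pooled relaxed summit in their window. Over all lengths, 784 protein-coding genes (5.62%) had a summit in none of the lists. The IDR list held none within 10 kb of it either.

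CG42741 (FBgn0261705, 2R from 23011078 to 23042943, minus strand), a gene with KLF-type fingers, had no IDR summit and 5 relaxed ones, where the median of genes of its length was 10. The highest, 147 bp upstream of its start, had a pooled signal of 34.5 at rank 11914, with 24.0 in replicate 1 and no summit in replicate 3. None of the 5 had a summit in both replicates. The annotation places the gene inside an intron of the longest transcript of twi, the mesoderm determinant, so its summits are within twi too.

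**Figure D4:**
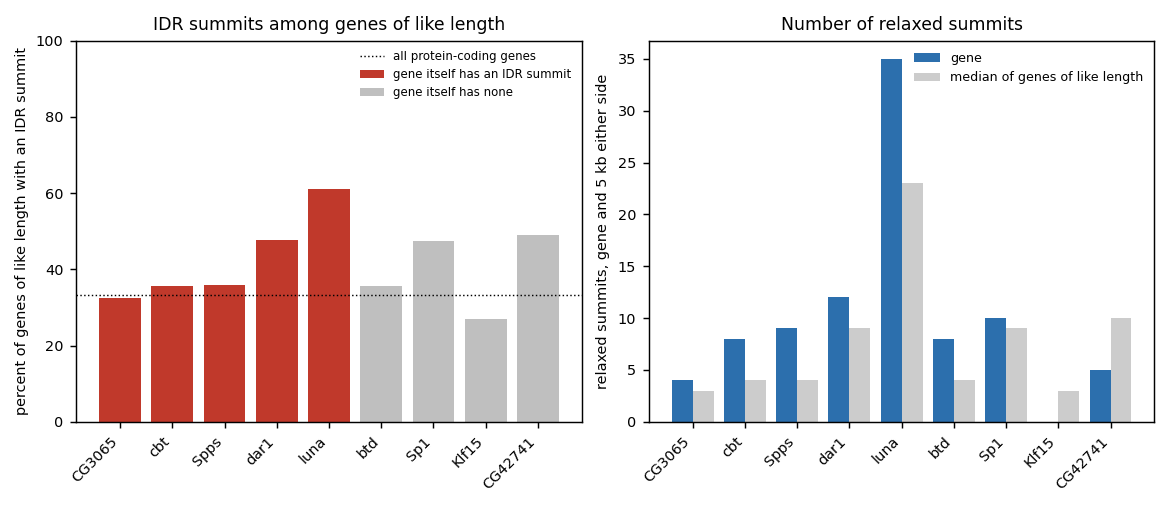
On the left, bars give the percent of protein-coding genes within 1.5 times the length of each member that have an IDR summit in the gene or 5 kb either side, red where the member has one itself and grey where it has none, with a dotted line at 33.2% for all genes. On the right, the number of relaxed summits of each member stands beside the median of genes of like length; 7 members exceed it, by 1 summit at CG3065 and Sp1, and CG42741 and Klf15 fall below it.

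Summit density was also uneven across the family. Per 10 kb of gene and flanks, Spps had 6.67 relaxed summits, cbt 6.04 and btd 5.98, where the median gene had 2.59. CG3065 (3.35), dar1 (3.24), Sp1 (2.72) and luna (2.36) were nearer to that median, and CG42741 (1.19) and Klf15 (0) under it. A high density did not go with IDR summits at btd, which had none. Of the relaxed summits, 1 of 9 at Spps, 2 of 8 at cbt and 0 of 8 at btd lay in the gene body. Those bodies span 3490, 3243 and 3373 bp of windows of 13.5, 13.2 and 13.4 kb. Most summits would therefore lie in the flanks by length alone, and these counts do not show where the density is highest.

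Words that Sp/KLF proteins are known to bind were searched within 50 bases of each summit. The Sp/KLF box here is the word CACACCC, the word CACGCCC, the word CCCACCC or the word CCCGCCC on either strand, and these words can overlap each other, the GC box and CACCC. The box was found at 2 of 11 family IDR summits (18.2%), the dar1 summit at 6280 bp and the luna summit, and at 11.3% of all IDR summits. In dar1 it began 50 bp from the summit, at the edge of the window. CACCC was found at 3 of 11, against 8.08% of all IDR summits, and the GC box at 1 of 11, against 5.47%. Counts of 1 to 3 in 11 are too small to set the family apart from the list as a whole.

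The box was also found at 16 of the family's 80 relaxed-only summits (20%), 7 of them at luna, 4 at btd, 3 at Sp1 and 2 at dar1, and at 9.36% of all relaxed summits. In promoters, taken as 250 bp before to 50 bp after the gene's 5' end, 1 of 9 members had it (CG42741), against 6.15% of all protein-coding genes. CACCC was in 2 of 9 (Spps and CG42741), against 23.0%. The CG3065 and cbt promoters held none of these words.

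The base composition of the 11 windows ranged from 22.8% GC at the summit beside CG34213 and or to 56.4% at the dar1 summit with the box. The median was 30.7%, where all IDR summits had a median of 34.7% and quartiles of 28.7% and 43.6%. The family's relaxed-only summits had a median of 47.0%. The median over all relaxed summits is not given here, so this value cannot be called high or low for that list. Words made mostly of G and C turn up more often in GC-rich windows, and the part of composition in the counts above was not tested.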

How the data were processed

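The authors deposited narrowPeak lists in dm6 and dm3; only the dm6 lists were used. Per the file records, each relaxed list was made as input for IDR and the thresholded list was drawn from the 3 relaxed ones. The signal of each peak is the deposited value of the authors' caller, and the deposited -log10 q per peak sits at a common maximum in 88.1% of IDR peaks, so it was not used to rank. Its lowest value in the pooled relaxed list is 0.0314, so that list also holds background. For the aligner, peak caller, versions and IDR cutoff, details were not given in the sources used here.

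Summits (start plus offset, 1-based) were placed on genes of BDGP6 version 54 (Ensembl release 115) and on RefSeq's Release 6 sequence, which dm6 shares and whose annotation gave the proteins. A summit in another list counted as the same within 200 bp. A replicate summit could match more than 1 pooled summit, so matches do not count separate replicate peaks. All values are descriptions: with 1 group of 2 replicates and no control there is no test and no SD. Per the labels, sonication gave fragments of 200 to 800 bp. The 9 genes, the lists and the words were chosen with earlier results of these data known. Named are all members with their IDR summits, relaxed summits within 500 bp of an own start, the highest relaxed summit of members without an IDR summit, and genes whose start is nearest to or within 500 bp of a member IDR summit. Other summits and genes were named after their values were seen. The finger comparison took the first 3 fingers joined by 7-residue linkers, leaving out the residues between the paired cysteines, since the last 3 fingers of CG3065, which the design named, are not contiguous. Counting was tested on simulated peaks. Python 3.11.15, numpy 2.4.6, pandas 2.3.3, biopython 1.88 and matplotlib 3.10.9 were used.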

Additional observations from a re-analysis of the deposited data

How the results depend on the processing

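The count of 5 members with an IDR summit was 4 to 6 under other windows, but 3 when only summits nearest to the member's own start counted. Settings without a replicate did not rerun IDR. They took the 2451 highest peaks of the remaining replicate's own list in place of IDR peaks. By those peaks, 5 members had a summit from either replicate alone. The 11 IDR summits became 6 at 1 kb and 18 at 10 kb, and 7 among the 1225 IDR peaks of highest signal. All 7 of those had a summit in both replicates. Without a replicate, 10 to 12 of the remaining replicate's highest peaks lay in the windows. Relaxed summits numbered 58 at 1 kb in place of 91. The 2 members with an IDR summit at an own start became 1 (CG3065) within 250 bp and 1 (cbt) among the 1225 highest. The 2 summits with the box became 1 in windows of 25 bp either side, 1 for the GC box alone, 1 among the 1225 highest, and 1 to 2 without a replicate; windows 500 bp to the right also gave 2. Of 63 member counts of summits under these alternatives, 13 moved by over 1.5 times. By the peaks of a single replicate, cbt had 4 without replicate 3 and luna 2 without replicate 1. By IDR summits, btd had 2 at 10 kb. With the last 3 fingers of CG3065, an alternative added after seeing the data, identity with Spps was 60.4% in place of 81.3% of 48 finger residues, and the order of relatives changed. No paired analysis was possible because there is 1 group. Depth is unknown, so an absent summit may reflect depth.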

Other observations

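Genes taken as relatives outside the 9 and partners of btd and Sp1 were looked up in the same way. Of the relatives hkb (terminal gap gene), sr (tendon cell fate) and klu (neural fate), 1 of 3 had an IDR summit in its window and 0 at a start, where 33.2% and 12% of all protein-coding genes had one. That was sr, on 3R at 18125258 in an intron, with a pooled signal of 108, 52.3 in replicate 1 and 47.6 in replicate 3. Their fingers were further from those of CG3065, at 50.7% to 53.5% of the 71 positions. At the 9 positions that usually touch bases, hkb matched CG3065 at 6, and sr and klu at 2 each.

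Of 8 genes that act with btd and Sp1 in head and appendages (Dll, dac, hth, exd, ems, oc, wg and dpp), 4 had an IDR summit in the window, beside the same 33.2% of all protein-coding genes. Several of the 8 are long, and long genes more often have one, so neither count sets its list apart. The highest was at wg, the Wnt ligand gene, with 95.0 pooled, 53.5 in replicate 1 and 44.1 in replicate 3. At dpp, a BMP ligand gene, 2 intragenic summits had 92.9 and 90.8 in the pooled list. The dac summit (89.9) lay 353 bp from the start of Nepl8. The oc summit, 306 bp upstream of the oc start, had 84.1 in the pooled list and 50.4 in replicate 1, with no summit in replicate 3. Dll, hth, exd and ems had 0 IDR summits, though hth held 80 relaxed ones.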
